A study of Mus musculus with 2 samples.

Results

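The 8 genes described here encode secreted factors with known actions on blood vessels or epithelium: Vegfa, Vegfb, Pgf, Prok2, Thbs1, Osm, Hbegf and Areg. They were taken by gene symbol from the 31053 genes of a single-cell RNA matrix, and all 8 were present in it. The matrix came from tumor-associated neutrophils (TANs) of mice carrying Lewis lung carcinoma (LLC), a transplantable mouse carcinoma line that was inoculated under the skin. One library came from wild-type hosts (Smad3-WT, Smad3+/+) and one from hosts without functional Smad3, a transcription factor of the TGF-β pathway (Smad3-KO, Smad3-/-). All hosts were C57BL/6 mice (C57BL/6 J per the study's methods) of 8 to 12 weeks, and the tumor cells carried no label of a Smad3 deletion. In both arms 8 tumors were pooled, CD11b+Ly6G+ cells were sorted by FACS, and the sorted cells were captured with a 10x Genomics 5′ kit.

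Pooling left 1 library per genotype. Differences between the genotypes therefore have no replicate error, no test was possible, and genotype cannot be told apart from pool, sort and library. Levels are given as unique molecular identifiers (UMIs) of a gene per 1000000 UMIs of a cell class (CPM), with exact 95% Poisson intervals. Quotients of the Smad3-KO over the Smad3-WT level (KO/WT) carry exact binomial intervals at the same confidence. Both kinds of interval cover counting error only. They treat UMIs as independent and leave out the spread between cells, so they are too narrow where few cells hold many UMIs. Quotients of at least 2 or at most 0.5, among genes with at least 20 UMIs over both libraries, are counted as past 2-fold.

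VEGF-A is the main growth factor for endothelial cells and is induced by hypoxia. VEGF-B and placental growth factor (Pgf) share its receptor VEGFR1, prokineticin 2 (Prok2, also called Bv8) is a myeloid peptide that mobilizes neutrophils and promotes angiogenesis, and thrombospondin 1 (Thbs1) is a matrix glycoprotein that inhibits angiogenesis and activates latent TGF-β. Oncostatin M (Osm) is an interleukin-6 family cytokine released by myeloid cells, while heparin-binding EGF-like growth factor (Hbegf) and amphiregulin (Areg) are membrane-anchored ligands of the EGF receptor that are released by sheddases such as ADAM17.

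The sorted libraries held more than neutrophils. After the cell filters 3897 Smad3-WT cells (23435436 UMIs, median 1767 per cell) and 2433 Smad3-KO cells (4146792 UMIs, median 1199) remained. Unsupervised clustering gave 11 clusters, which were placed in classes by marker genes. The Smad3-WT library held 1821 neutrophil-like, 1167 macrophage or monocyte-like, 771 LLC carcinoma-like, 61 T or NK cell-like, 49 fibroblast-like, 26 dendritic cell-like and 2 B cell-like cells. In the Smad3-KO library there were 1080, 176, 24, 466, 69, 44 and 574 cells of these classes, in the same order. The median depth of the 24 Smad3-KO cells placed among the carcinoma-like cells was 622 UMIs, compared with 19626 for the Smad3-WT ones, so tumor cells can hardly be compared between genotypes. Neutrophil-like cells of the 2 libraries lay largely in different clusters. Of the Smad3-WT cells 1458 were in cluster 1 (led by Mmp9, G0s2 and Il1r2) and 338 in cluster 7 (led by the interferon-induced genes Ifit3b and Rsad2), whereas of the Smad3-KO cells 863 were in cluster 3 (led by Il1a, Lcn2 and Csf3) and 60 in cluster 11 (led by the granule genes Ngp, Camp and Ltf). A cluster that comes mostly from 1 library may reflect that library and not a cell type. The libraries shared 73 barcode sequences, and the neutrophil and macrophage calls below were the same without them.

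Summed over all kept cells, each member had enough UMIs for a quotient, and 5 of 8 were past 2-fold. Prok2 was higher in Smad3-KO, at 93.8 against 4.69 CPM (19.99-fold, 16.1 to 24.9), and so was Vegfa (2.19-fold, 1.95 to 2.46). Vegfb, Hbegf and Areg were lower, with quotients of 0.075, 0.066 and 0.091. Thbs1 (1.23), Osm (1.05) and Pgf (1.44) stayed within 2-fold. Of 13174 genes with enough UMIs, 22.5% were at least 2-fold higher and 22.6% at least 2-fold lower in Smad3-KO, and the median quotient was 1.14 over the members and 0.978 over all genes. These whole-library values mix classes whose shares differed widely, so each member is described by class.

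**Figure D1:**
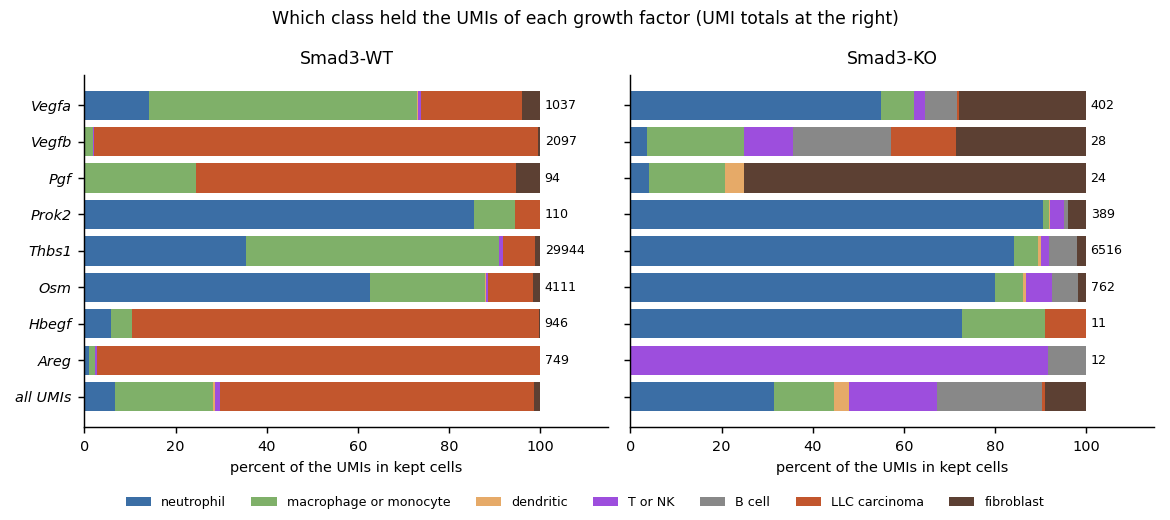
Share of each member's UMIs (percent, horizontal axis) that came from each cell class, with Smad3-WT and Smad3-KO shown separately. In Smad3-WT the LLC carcinoma-like class held 97.4% of Vegfb, 97.2% of Areg and 89.2% of Hbegf UMIs, and the neutrophil-like class held 85.5% of Prok2 UMIs there and 90.5% in Smad3-KO.

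The members had different cellular sources. In the Smad3-WT library, LLC carcinoma-like cells held 97.4% of Vegfb, 97.2% of Areg, 89.2% of Hbegf and 70.2% of Pgf UMIs, while they held 68.9% of all UMIs. Macrophage or monocyte-like cells, with 21.4% of all UMIs, held 58.8% of Vegfa and 55.5% of Thbs1 UMIs. Neutrophil-like cells contributed only 6.74% of the library's UMIs but 85.5% of Prok2 and 62.8% of Osm. In Smad3-KO, where neutrophil-like cells held 31.5% of UMIs, they gave 90.5% of Prok2, 84.2% of Thbs1, 79.9% of Osm and 55.0% of Vegfa. Fibroblast-like cells gave 75% of the 24 Pgf UMIs and 27.9% of Vegfa there, and T or NK cell-like cells gave 11 of the 12 Areg UMIs.

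**Figure D2:**
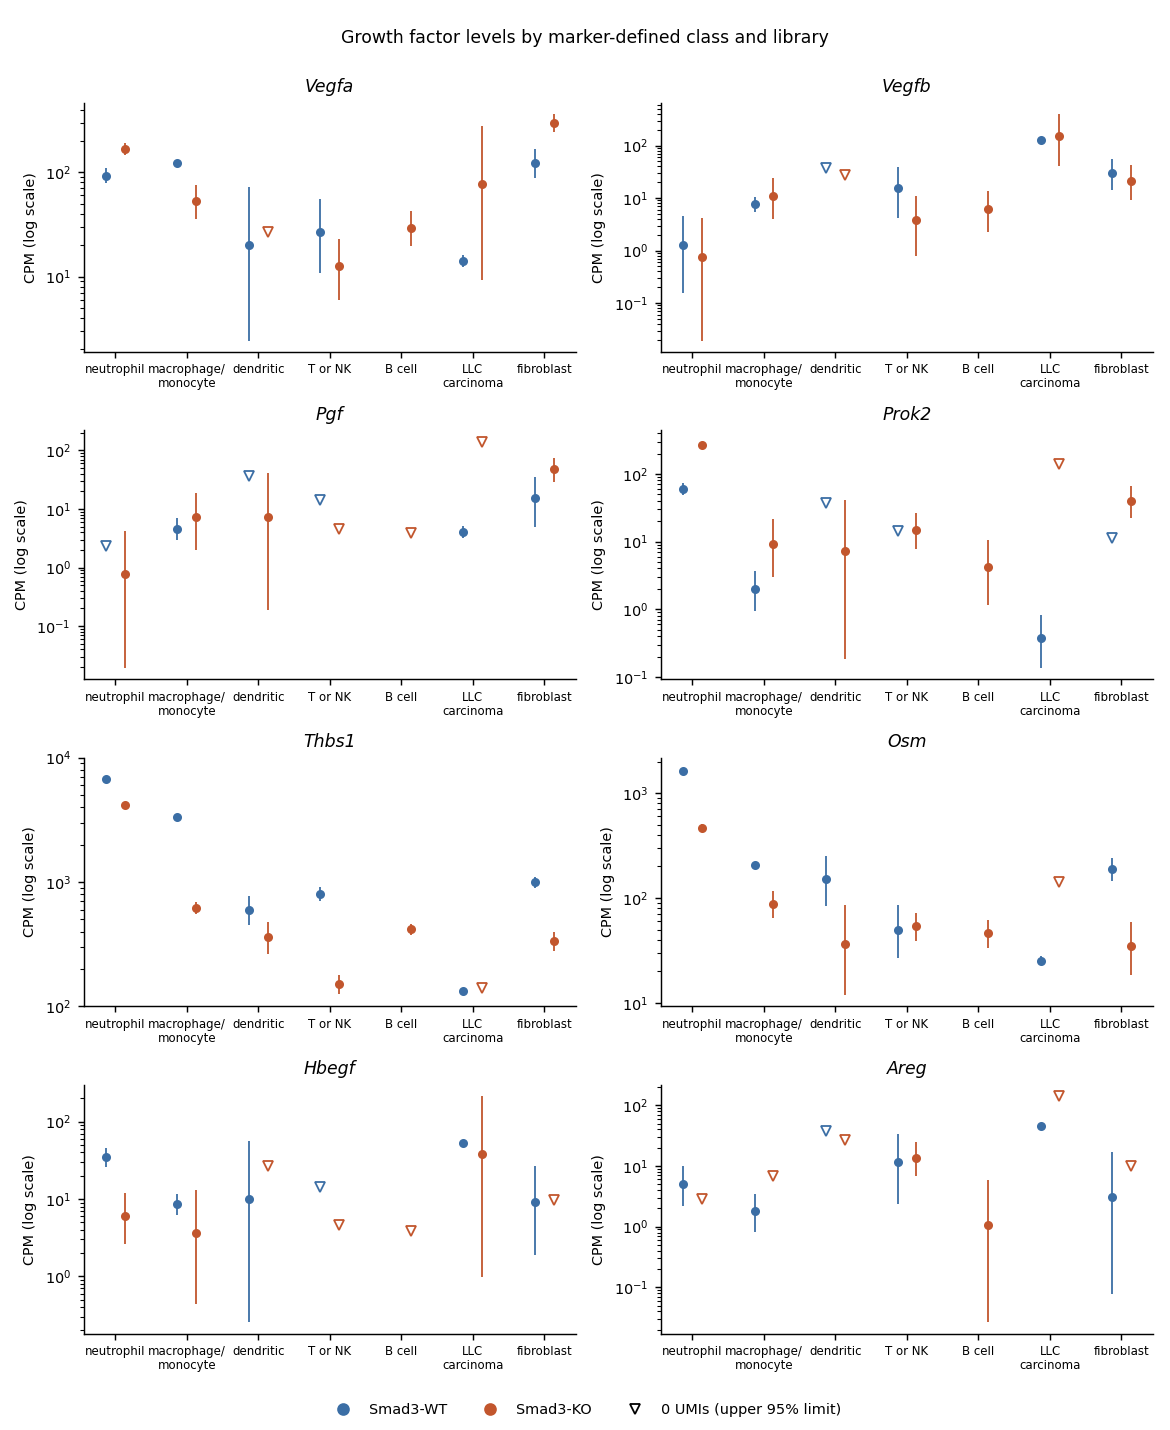
Level of each member (CPM, log axis) in each cell class, 1 panel per gene, with Smad3-WT and Smad3-KO points and exact 95% Poisson intervals of counting error; open triangles mark the upper limit where a class had 0 UMIs, and the 2 Smad3-WT B cell-like cells are left out. Thbs1 in neutrophil-like cells stood at 6707 CPM in Smad3-WT and 4197 in Smad3-KO, whereas Prok2 stood at 59.5 and 269.

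In neutrophil-like cells, 5 members had enough UMIs, and Prok2 was the only one past 2-fold in the higher direction. The 94 Smad3-WT UMIs gave 59.5 CPM (48.1 to 72.8) and the 352 Smad3-KO UMIs gave 269 CPM (242 to 299), a 4.53-fold difference (3.596 to 5.75). Osm, the interleukin-6 family cytokine, stood at 1633 CPM (1570 to 1697) in Smad3-WT and 466 (430 to 504) in Smad3-KO, a quotient of 0.285 (0.261 to 0.312). The EGF receptor ligand Hbegf had 55 and 8 UMIs, or 34.8 and 6.12 CPM, with a quotient of 0.176 (0.072 to 0.371). Both were thus past 2-fold in the lower direction.

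Vegfa and Thbs1 stayed within 2-fold in neutrophil-like cells, with counting intervals that did not reach 1. Vegfa was at 93.0 CPM (78.6 to 109) in Smad3-WT and 169 (148 to 193) in Smad3-KO, 1.82-fold higher (1.47 to 2.25). Thbs1, with 10597 and 5485 UMIs the most deeply counted member, was at 6707 CPM (6579 to 6835) and 4197 (4086 to 4309), a quotient of 0.626 (0.606 to 0.647). The remaining members had too few UMIs for a quotient, namely 2 and 1 of Vegfb, 0 and 1 of Pgf and 8 and 0 of Areg. Against the floor of 3 UMIs, Areg was at least 2.21-fold lower in Smad3-KO. This bound leaves out the counting error of the 8 Smad3-WT UMIs, which came from 4 cells.

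Among the 5999 genes with enough UMIs in neutrophil-like cells, 7.77% were at least 2-fold higher and 18.5% at least 2-fold lower in Smad3-KO, against 1 and 2 of the 5 members. The median quotient was 0.626 over these members and 0.787 over all genes. Since the bulk of genes lay below 1, the quotients were also scaled by the median of gene-wise ratios (0.836), which left 11% of genes higher and 11.3% lower. On this scale Prok2 was 5.41-fold and Vegfa 2.17-fold higher, and the quotients were 0.748 for Thbs1, 0.341 for Osm and 0.210 for Hbegf, so that Vegfa joined the genes past 2-fold.

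**Figure D3:**
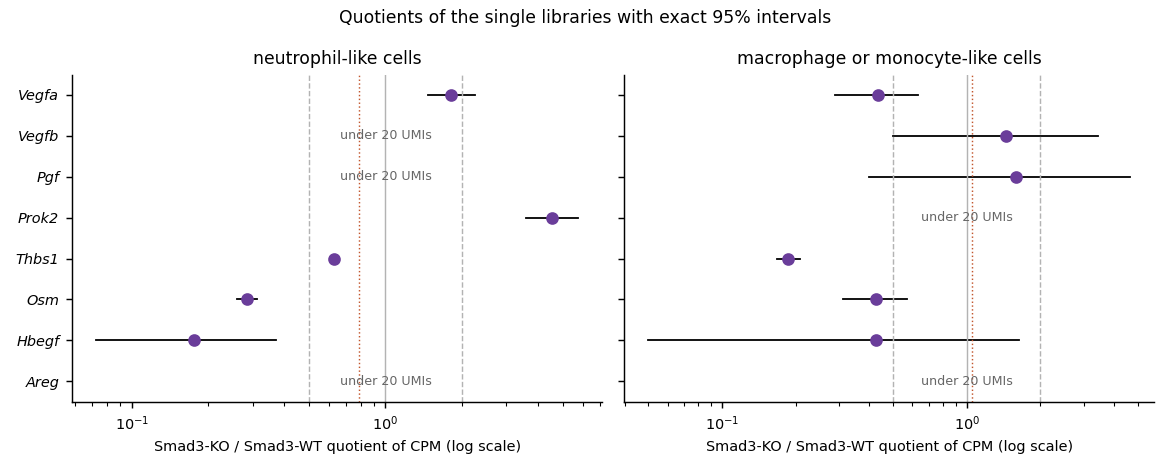
KO/WT quotient of CPM for each member (log axis) in neutrophil-like (left) and macrophage or monocyte-like cells (right), with exact 95% binomial intervals of counting error, dashed lines at 0.5 and 2 and a dotted line at the median of all genes with enough UMIs (0.787 and 1.05). Vegfa lay at 1.82 in neutrophil-like but at 0.435 in macrophage or monocyte-like cells, and Osm and Hbegf lay below 0.5 in both.

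The number of cells with a UMI moved with the levels. Of 1821 Smad3-WT neutrophil-like cells, 28 (1.54%) carried a Prok2 UMI, and of 1080 Smad3-KO cells 99 did (9.17%). Once each cell had been thinned to 500 UMIs, because the median depths were 738 and 1015.5 UMIs, the shares were 1.15% and 5.56%. In T or NK cell-like cells, which should not make Prok2, 0 of 61 Smad3-WT cells (median 3258 UMIs) carried a UMI, which allows a share of up to 4.92% (3 counts), and 1.29% of Smad3-KO cells did (median 1378.5 UMIs). The Smad3-WT neutrophil-like share lay under that limit. By level, Smad3-WT neutrophil-like cells had 59.5 CPM of Prok2, above the 11.5 CPM that 0 UMIs allow in T or NK cell-like cells. Prok2 transcripts were concentrated in few cells: a positive cell held 3.36 UMIs on average in Smad3-WT and 3.56 in Smad3-KO, and the highest cells held 26 and 44 UMIs.

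Vegfa was more evenly spread, with 1.30 UMIs per positive neutrophil-like cell in both libraries. The shares with a UMI were 6.21% for Smad3-WT and 15.7% for Smad3-KO, or 3.68% and 6.85% after thinning, against 9.84% and 1.502% of T or NK cell-like cells, or 0 of 61 and 0.215% after thinning. Osm was detected in 50.5% and 30.6% of neutrophil-like cells (40.1% and 17.8% after thinning), and positive cells held 2.80 and 1.84 UMIs. For Thbs1 the shares were 76.3% and 67.9% (71.3% and 58.2% after thinning), with 7.63 and 7.48 UMIs per positive cell. The same comparison of T or NK cell-like cells gave 13.1% and 5.15% for Osm and 36.1% and 6.87% for Thbs1 without thinning, and 0 of 61 and 1.72% for Osm and 13.1% and 4.51% for Thbs1 with it. Thinned shares in neutrophil-like cells were thus above those in T or NK cell-like cells for Osm and Thbs1 in both libraries and for Vegfa in Smad3-KO, while the 3.68% for Vegfa in Smad3-WT lay under the 4.92% that 0 of 61 cells allows. By level, Smad3-WT Vegfa was at 93.0 CPM (78.6 to 109) in neutrophil-like and 26.9 (10.8 to 55.4) in T or NK cell-like cells. These T or NK cell-like cells also carried macrophage RNA. Macrophage or monocyte markers stood there at a median of 21.8% of their own class's level, against 3.47% in Smad3-WT neutrophil-like cells. Among neutrophil-like cells, 2.42% (Smad3-WT) and 0.741% (Smad3-KO) carried a Hbegf UMI, or 1.26% and 0.278% after thinning. In T or NK cell-like cells it was carried by 0 of 61 and 0 of 466, which allows up to 4.92% and 0.644%. By share alone, neutrophil-like cells were thus not distinguishable from this background in Smad3-WT and, once thinned, in Smad3-KO. By level, Smad3-WT neutrophil-like cells had 34.8 CPM of Hbegf (26.2 to 45.3), above the 11.5 CPM that 0 UMIs allow in T or NK cell-like cells. In Smad3-KO that limit was 3.76 CPM, inside the interval of 2.64 to 12.1 around 6.12 CPM.

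Within single neutrophil-like clusters the library difference took another shape. In cluster 1, which held 1458 Smad3-WT and 138 Smad3-KO cells, Prok2 was at 32.6 and 139 CPM (4.26-fold, 2.15 to 7.98), the sole one of 5 members past 2-fold there, where 9.42% of genes were at least 2-fold higher and 24.9% at least 2-fold lower in Smad3-KO. Osm was at 1733 and 1381 CPM in that cluster (0.797, 0.667 to 0.947), and Thbs1 at 7097 and 4163 (0.587, 0.531 to 0.647). In cluster 3, which held 25 Smad3-WT and 863 Smad3-KO cells, none of the 4 members with enough UMIs passed 2-fold, against 34.6% of genes higher and 23.2% lower. There Prok2 was at 198 and 283 CPM (1.43, 0.551 to 5.27), Osm at 645 and 395 (0.613, 0.354 to 1.16), Vegfa at 149 and 192 (1.29) and Thbs1 at 3474 and 4743 (1.37, 1.08 to 1.75). Both Osm quotients were nearer to 1 than the 0.285 of the whole class, but that of cluster 3 rests on 13 Smad3-WT UMIs. Osm was itself among the 10 leading genes of cluster 1, so neither its level nor its quotient there is a finding.

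**Figure D4:**
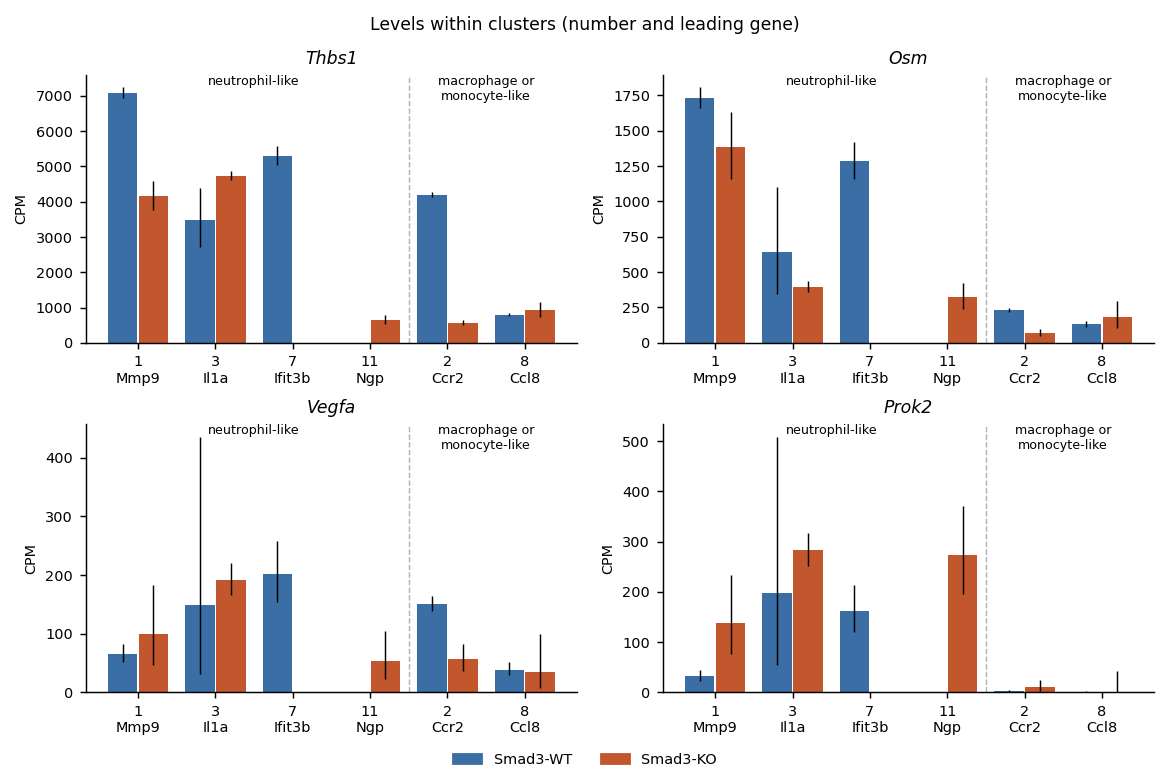
Level (CPM) of Thbs1, Osm, Vegfa and Prok2 in the neutrophil-like and macrophage or monocyte-like clusters, as bars for Smad3-WT and Smad3-KO with exact 95% Poisson intervals of counting error, and with no bar where a cluster held fewer than 20 cells of a library. Thbs1 in cluster 2 was at 4203 CPM for Smad3-WT and 561 for Smad3-KO, but at 799 and 923 in cluster 8.

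The clusters seen almost entirely in 1 library differed as well. Cluster 7, with the interferon-induced genes, had 201 CPM of Vegfa, 161 of Prok2, 1285 of Osm and 5303 of Thbs1 in its Smad3-WT cells. Its 49 Prok2 UMIs came from 9 of 338 cells (2.66%), 1 of which held 26. Cluster 11, found only in Smad3-KO and led by genes of immature neutrophils, had 274 CPM of Prok2, which was present in 31.7% of its 60 cells. Median depths were 1959 UMIs in cluster 11 and 773.5 in the Smad3-WT cells of cluster 7. After thinning the shares were 13.3% in cluster 11 and 2.66% in cluster 7. The other levels of cluster 11 were low, at 53.5 CPM for Vegfa, 321 for Osm and 648 for Thbs1.

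Macrophage or monocyte-like cells, which express Csf1r and C1qb, gave enough UMIs for 6 members, and 4 were past 2-fold, each lower in Smad3-KO. Thbs1 had 16615 and 339 UMIs and stood at 3316 CPM (3266 to 3367) in Smad3-WT and 619 (555 to 689) in Smad3-KO, a quotient of 0.187 (0.167 to 0.208). Vegfa was at 122 CPM (112 to 132) and 53.0 (35.5 to 76.1), or 0.435 (0.289 to 0.631). Osm was at 206 CPM (194 to 219) and 87.7 (64.7 to 116), or 0.426 (0.312 to 0.569). Hbegf had only 43 and 2 UMIs, with an interval of 0.050 to 1.63 around its quotient of 0.426. Vegfb (38 and 6 UMIs, 1.45, 0.499 to 3.45) and Pgf (23 and 4 UMIs, 1.59, 0.4002 to 4.66) stayed within 2-fold, and Prok2 (10 and 5 UMIs) and Areg (9 and 0) were too rare for a quotient.

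In this class 12.2% of 9639 genes were at least 2-fold higher and 10.3% at least 2-fold lower in Smad3-KO, against 0 and 4 of 6 members. The median quotient was 0.430 over the members and 1.05 over all genes, and median-of-ratios scaling (factor 1.09) put Vegfa at 0.398, Thbs1 at 0.171 and Osm at 0.390. With cells of at least 500 UMIs and at most 20% mitochondrial UMIs, 94 Smad3-KO cells were placed in this class, and Vegfa (0.568) was then within 2-fold while Pgf (4.41) was past it. The lower levels were those of cluster 2, led by Ccr2, Ppbp and Mmp12, with 965 Smad3-WT and 141 Smad3-KO cells. There Thbs1 was at 4203 and 561 CPM (0.134, 0.118 to 0.151), Vegfa at 151 and 56.6 (0.375, 0.243 to 0.555) and Osm at 233 and 69.6 (0.299), and Hbegf (29 and 1 UMIs, 0.278, 0.0068 to 1.68) was past 2-fold as well. Vegfb was past 2-fold in the other direction on 16 and 5 UMIs, with an interval that spanned 1 (2.52, 0.722 to 7.20). Of all genes in cluster 2, 13.4% were higher and 10.8% lower. In cluster 8, led by Ccl8, Retnla, C1qa and Mrc1, with 202 and 35 cells, none of the 4 members with enough UMIs was past 2-fold, against 14.3% of genes higher and 21.3% lower. Its quotients were 1.15 for Thbs1 (0.909 to 1.45), 1.40 for Osm (0.782 to 2.34) and 0.875 for Vegfa.

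The share of macrophage or monocyte-like cells with a UMI was 78.4% in Smad3-WT and 37.5% in Smad3-KO for Thbs1 (56.0% and 21.0% after thinning), 28.4% and 12.5% for Vegfa (8.40% and 3.41%) and 30.7% and 13.1% for Osm (9.51% and 3.41%), at median depths of 3505 and 2807 UMIs. RNA of neutrophils was also present in this class, since the 9 neutrophil markers with enough UMIs stood in Smad3-WT at 6.03% to 10.8% of their level in neutrophil-like cells (median 8.10%). Thbs1 there was at 49.4% of its neutrophil-like level and Osm at 12.6%, both above that range. In Smad3-KO the 12 neutrophil markers stood at 0.98% to 19.0% (median 6.70%). Thbs1 at 14.8% and Osm at 18.8% lay inside that range and are not distinguishable from carried-over neutrophil RNA, whereas Vegfa at 31.3% lay above it. Among macrophage or monocyte-like cells without any UMI of the neutrophil markers, 471 Smad3-WT and 58 Smad3-KO cells, the quotients were 0.0905 for Thbs1, 0.201 for Osm and 0.298 for Vegfa.

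The 6 platelet markers were at or near 0. Neutrophil-like cells held 0 UMIs of the platelet list in the wild-type library and 3 in the knockout, and macrophage or monocyte-like cells 3 and 2. Carcinoma RNA was low in neutrophil-like cells of Smad3-WT, where the 5 carcinoma markers stood at 1.62% to 3.06% of their level in carcinoma-like cells. Vegfb at 1.001% was below that range, Areg at 11.2% (8 UMIs) and Hbegf at 66.6% were above it. Erythroid genes in neutrophil-like cells summed to 220 CPM for Smad3-WT against 1315 for Smad3-KO, and their part in the quotients was not tested.

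Smad3-WT carcinoma-like cells were the main site of Vegfb, Hbegf and Areg. Vegfb, with 2043 UMIs, was at 126 CPM (121 to 132) and was present in 589 of 771 cells (76.4%). Hbegf, with 844 UMIs, was at 52.3 CPM (48.8 to 55.9) in 42.2% of cells, of which the highest held 58 UMIs. Areg, with 728 UMIs, was at 45.1 CPM (41.9 to 48.5) in 36.8% of cells. These shares were counted at a median depth of 19626 UMIs per cell. After thinning they were 5.06% for Vegfb, 2.33% for Hbegf and 1.30% for Areg. Thinned shares of Smad3-WT neutrophil-like cells were 0.0549%, 1.26% and 0.110%, in the same order. The carcinoma-like cells had no upper UMI limit, and with a limit of 20000 UMIs 377 of them would be lost. Vegfa, by contrast, was low there (14.2 CPM, 12.5 to 16.2) beside the 122 CPM of macrophage or monocyte-like cells, and Pgf was rare (66 UMIs, 4.09 CPM, 31 cells). The carcinoma-like Thbs1 (132 CPM) and Osm (25.3 CPM) levels were 1.97% and 1.55% of those in neutrophil-like cells, inside the 0.58% to 3.06% spanned by neutrophil markers. In the 24 Smad3-KO cells there were 4 UMIs of Vegfb (153 CPM, 41.7 to 392), 2 of Vegfa, 1 of Hbegf and 0 of the other members, for each of which a count of 0 allows up to 114.7 CPM (3 UMIs).

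Fibroblast-like cells, 49 in Smad3-WT and 69 in Smad3-KO, were a further site of Vegfa and Pgf. Vegfa was at 124 CPM (89.1 to 168) in Smad3-WT and 298 (246 to 359) in Smad3-KO, 2.40-fold higher (1.67 to 3.53). Its 112 Smad3-KO UMIs came from 26 cells, 1 of which held 16. The share of cells with a Vegfa UMI went the other way, at 49.0% in Smad3-WT and 37.7% in Smad3-KO. After thinning the shares were 10.2% and 4.35%, and positive cells held 1.71 and 4.31 UMIs before it. Pgf had 5 and 18 UMIs, 15.1 and 47.9 CPM, a 3.17-fold difference with a wide interval (1.13 to 10.9). Thbs1 was at 993 and 336 CPM (0.338, 0.273 to 0.416) and Osm at 188 and 34.6 CPM (0.184, 0.093 to 0.339). Prok2 had 0 and 15 UMIs and, against the floor of 3 UMIs, was at least 4.40-fold higher in Smad3-KO, counting error left out. The 15 UMIs came from 5 cells, with at most 6 in a cell, and gave 39.9 CPM (22.4 to 65.9). This was 14.8% of the neutrophil-like level, where neutrophil markers spanned 0% to 11.4% in these Smad3-KO cells. With its counting interval, Prok2 is not distinguishable there from carried-over neutrophil RNA. Thbs1 at 8.00% and Osm at 7.43% were inside the marker range. Macrophage RNA was plentiful in the Smad3-WT fibroblast-like cells, where the 13 macrophage or monocyte markers stood at 14.5% to 44.5% of their own class's level against 1.72% to 30.5% in Smad3-KO. Thbs1 at 29.9% lay inside the Smad3-WT range, whereas Vegfa at 102% and Osm at 91.1% lay above it, and the part of such RNA in these quotients was not tested.

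In T or NK cell-like cells, Thbs1 was at 803 CPM in Smad3-WT and 150 in Smad3-KO (0.187, 0.148 to 0.235), and the Smad3-KO value was 3.58% of the neutrophil-like level against a marker median of 3.41%. The Smad3-WT value was 24.2% of the macrophage or monocyte-like level, inside the 9.68% to 153% of that class's markers. Areg, which lymphocytes can make, had 3 and 11 UMIs in this class, and the 11 came from 3 cells, 1 of which held 9. Osm stood at 49.9 and 53.9 CPM. In dendritic cell-like cells Osm was at 151 and 36.6 CPM (15 and 5 UMIs, 0.242, 0.069 to 0.702) and Thbs1 at 593 and 358 CPM. In Smad3-WT these were 9.24% and 8.84% of the neutrophil-like level, inside the 0% to 12.7% of neutrophil markers. In Smad3-KO they were 7.84% and 8.54%, inside 0% to 17.6%. Neither gene is thus distinguishable there from carried-over neutrophil RNA.

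The bases upstream of 4 start sites are shown, chosen among the members with a promoter entry. In Smad3-WT, Areg and Vegfb had their UMIs mainly in carcinoma-like cells. Prok2, and within 2-fold also Vegfa, had higher levels in Smad3-KO than in Smad3-WT neutrophil-like cells. Each sequence is the 250 bases before a RefSeq transcript start, 5′ to 3′ on the gene's strand, in GRCm38.p6 (the mm10 assembly), and capitals mark the motif matches described after them.
Areg, chr5:91139349-91139598, plus strand: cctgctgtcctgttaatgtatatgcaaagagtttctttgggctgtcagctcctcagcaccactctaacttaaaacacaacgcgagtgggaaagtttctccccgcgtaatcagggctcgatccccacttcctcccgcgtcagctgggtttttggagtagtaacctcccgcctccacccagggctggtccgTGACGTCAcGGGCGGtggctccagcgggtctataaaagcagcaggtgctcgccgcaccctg
Vegfb, chr19:6987652-6987901, minus strand: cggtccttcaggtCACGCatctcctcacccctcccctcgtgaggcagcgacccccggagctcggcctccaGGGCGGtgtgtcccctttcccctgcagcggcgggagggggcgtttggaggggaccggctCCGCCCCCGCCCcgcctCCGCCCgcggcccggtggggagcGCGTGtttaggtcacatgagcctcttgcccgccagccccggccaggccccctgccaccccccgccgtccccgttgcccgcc
Vegfa, chr17:46032378-46032627, minus strand: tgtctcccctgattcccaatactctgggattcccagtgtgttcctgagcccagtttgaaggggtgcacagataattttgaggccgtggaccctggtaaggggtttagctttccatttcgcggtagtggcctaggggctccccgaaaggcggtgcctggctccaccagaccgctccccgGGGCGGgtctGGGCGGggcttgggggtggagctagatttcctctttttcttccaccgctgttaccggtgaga
Prok2, chr6:99726393-99726642, minus strand: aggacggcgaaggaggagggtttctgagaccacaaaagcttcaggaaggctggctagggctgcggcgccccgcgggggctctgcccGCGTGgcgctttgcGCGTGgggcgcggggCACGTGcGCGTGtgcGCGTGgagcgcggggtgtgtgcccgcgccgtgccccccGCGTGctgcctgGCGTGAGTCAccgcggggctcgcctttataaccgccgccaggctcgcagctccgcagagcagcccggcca

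The windows were searched on both strands for 6 motifs. The Areg window held the full cAMP response element TGACGTCA at 61 to 54 bases before the start, and 1.55% of the 32851 RefSeq windows of this length held it. A GGGCGG box, the Sp1 motif (32.7% of windows), followed at 52 to 47 bases before the Areg start. In the Prok2 window there was 1 AP-1 motif TGANTCA (6.75% of windows) at 67 to 61 bases before the start. It also held 1 palindromic CACGTG, which matched the hypoxia response core ACGTG (16.6%) on both strands. There were 6 matches of the other form GCGTG (28.2%), the last of which overlapped the AP-1 motif. The shares are of windows with at least 1 match, and the Prok2 window was 73.6% G or C. The Vegfb window held 2 GCGTG and 4 GGGCGG matches, and the Vegfa window shown held 2 GGGCGG matches. Vegfa has a second RefSeq entry with a start downstream of the first, and its window, not shown, held 1 match of each form of the hypoxia response core and 1 of the GGGCGG box. That window lies inside the gene, and the bases checked after its start matched no GENCODE transcript of Vegfa. It may therefore not be a promoter. The SMAD palindrome GTCTAGAC (0.167% of windows) was in none of the 4. A match is a run of letters and not evidence of binding. Of the 8 members, 5 had a promoter entry, and Thbs1, Osm and Hbegf did not. The windows of Pgf are not shown.

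Per the annotation used here for positions (GENCODE M21 on mm10), Areg lies at chr5:91139599-91148432 and Osm at chr11:4236420-4241026, both on the plus strand, as does Thbs1 at chr2:118111876-118127133. Vegfa lies at chr17:46016993-46032369, Vegfb at chr19:6982473-6987651, Pgf at chr12:85166635-85177790 and Prok2 at chr6:99711299-99726392, all on the minus strand.

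The other genes of these pathways were mostly too rare in sorted myeloid cells to compare. In neutrophil-like cells, no VEGF receptor or coreceptor (5 genes), other angiogenic ligand (10), oncostatin receptor or interleukin-6 family gene (8) or EGF family gene (9) had enough UMIs. Of the 8 sheddases and partners 4 did: Adam17, the protease that releases Hbegf and Areg, was higher in Smad3-KO, at 67.1 and 208 CPM (3.10-fold, 2.47 to 3.92), Adam10 was lower (0.484), and Adam8 (0.645) and Rhbdf2 (1.19) stayed within 2-fold. Cd47, a receptor of thrombospondin 1, was at 454 and 195 CPM (0.429). Of 12 hypoxia regulators and targets, 11 had enough UMIs, with 0 higher, 1 lower (Arnt, 0.403) and 10 within 2-fold. The shares over all genes of this class, for both lists, were 7.77% higher and 18.5% lower. The median quotient of the 11 was 1.03, against 0.787 over all genes with enough UMIs in this class. The 10 within 2-fold ran from 0.504 for Egln3 (0.441 to 0.574) to 1.93 for Ero1l (1.75 to 2.13). Hif1a itself was at 1.03 and the glucose transporter gene Slc2a1 at 0.9997.

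Macrophage or monocyte-like cells gave another picture for the same lists. Of 11 hypoxia genes with enough UMIs, 0 were higher and 5 lower in Smad3-KO, with a median of 0.550. Over all genes of this class 12.2% were higher and 10.3% lower, with a median of 1.05. The 5 were Pgk1 (0.335), Ldha (0.396), Slc2a1 (0.423), Egln3 (0.434) and Bnip3 (0.435). The list genes were not split by cluster. The other 6 stayed within 2-fold, from 0.550 for Hif1a to 1.12 for Vhl. Vegfa, a hypoxia target by textbook knowledge, had a quotient of 0.435, and a link to these genes was not tested. Adam8 (0.361) and Adam9 (0.326) were the 2 of 5 sheddases past 2-fold, and Nrp2, a coreceptor of the VEGF family, was at 60.3 and 18.3 CPM (0.303). Of the 3 oncostatin and interleukin-6 family genes with enough UMIs, 1 was higher. This was Lifr, a receptor subunit named after its values were seen, with 80 and 33 UMIs (3.78-fold, 2.44 to 5.73), while Il6st, the shared signal transducer, was at 24.9 and 47.5 CPM (1.90). Of 3 other angiogenic ligands with enough UMIs, Adm, the adrenomedullin gene, had 42 and 0 UMIs. Against the floor of 3 UMIs it was at least 1.53-fold lower, with the counting error of the 42 left out. The others stayed within 2-fold, as did Cd36 (140 and 108 CPM) and Cd47 (1.38), both receptors of thrombospondin 1. In fibroblast-like cells Il6st stood at 212 and 272 CPM. EGF receptor transcripts were scarce over all kept cells, at 110 UMIs for Egfr, 136 for Erbb2, 93 for Erbb3 and 0 for Erbb4, and so were the VEGF receptors Kdr (33) and Flt1 (61). By level, Egfr was not low in every class, at 87.8 CPM (Smad3-WT) and 197 CPM (Smad3-KO) in the few fibroblast-like cells.

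Across the 13 library-by-class columns with at least 20 cells, the genes most like each member were ranked by Pearson's r of log2(CPM + 10). Thbs1 was most like Junb (r = 0.955), Atp6v0d1 (0.952) and Cxcl3 (0.952), and Osm most like Cxcl3 (0.966), Il1r2 (0.965) and Ccr1 (0.960). Those of Vegfb were Pimreg (0.963), Aspm (0.959) and Dtd2 (0.956), and those of Areg were Mipol1 (0.961), Slc35g1 (0.955) and Aunip (0.935). Prok2 was nearest to P2ry2 (0.909), Alkbh5 (0.909) and Igf1r (0.906), Hbegf to Rhob (0.871), Cited2 (0.867) and Gm364 (0.863), and Vegfa to Xdh (0.899), Tcn2 (0.889) and Anks1 (0.876). Among the members themselves, Thbs1 and Osm had r = 0.914, Vegfb and Hbegf 0.586, and Vegfb and Thbs1 -0.685. The columns share 2 libraries and their depth, and the classes were clustered on these genes, so these values are a description. Pgf, with 118 UMIs in all, was not ranked.

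**Figure D5:**
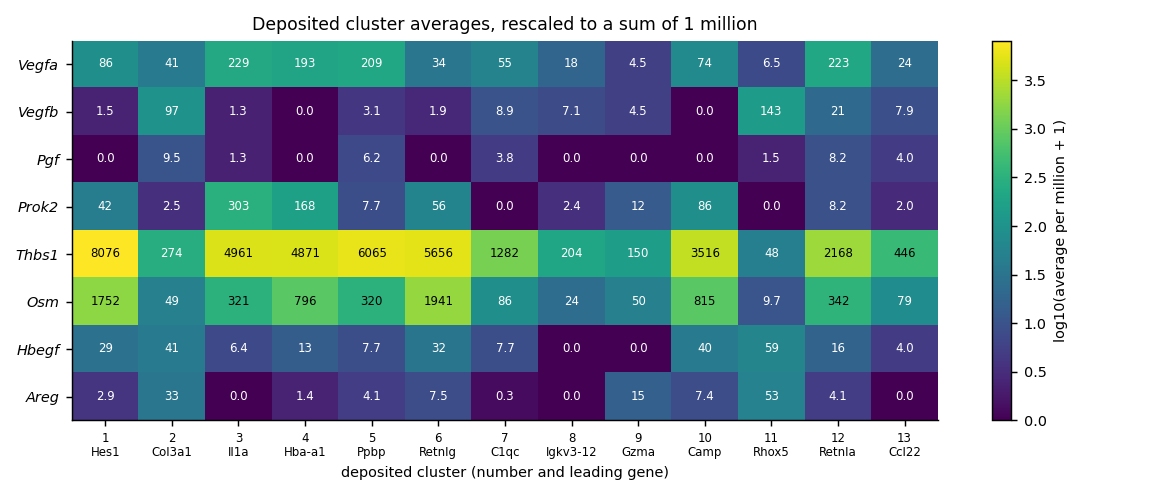
Heat map of the average level of each member (rows) in the 13 clusters for which averages were deposited (columns, with leading gene), rescaled to a column total of 1000000 and colored on a log10 scale. Vegfb was highest in cluster 11 (143) and cluster 2 (96.8), Prok2 in cluster 3 (303), and Thbs1 in cluster 1 (8076).

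The averages deposited for 13 clusters of all barcodes, each rescaled to a column total of 1000000, gave the same members a level without the cell classes used here. How many cells of either library each of these clusters holds is not known from the averages, so they are given by number and leading gene. Thbs1 was highest in cluster 1 (led by Hes1, 8076), followed by cluster 5 (Ppbp, 6065) and cluster 6 (Retnlg, 5656), and lowest in cluster 11 (Rhox5, 47.6). Osm was highest in clusters 6 (1941) and 1 (1752). Cluster 1 was one whose top 10 genes included Osm. Prok2 was highest in cluster 3 (Il1a, 303), then cluster 4 (Hba-a1, 168) and cluster 10 (Camp, 86.4). Vegfa was spread more evenly, at 229 in cluster 3, 223 in cluster 12 (Retnla), 209 in cluster 5 and 193 in cluster 4.

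Vegfb, Hbegf and Areg had the same leading deposited cluster, number 11, at 143, 58.5 and 52.7. The next for all 3 was cluster 2 (Col3a1, 96.8, 40.6 and 33.2), which also contained Krt8 at 238 and Col1a1 at 1245. Hbegf was close behind in cluster 10 (39.5). Pgf was highest in cluster 2, at 9.52. The averages have no error, and the order of neighbouring values cannot be judged against one.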

How the data were processed

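The data were UMI counts of 31053 genes in 4116 Smad3-WT and 2514 Smad3-KO barcodes, which the authors made with Cell Ranger 3.0.2 (mm10 per the submitters' processing notes) from 2 libraries of sorted cells and deposited as 1 matrix without a map from barcode suffixes to libraries. The suffixes were matched to libraries by recomputing the deposited average signal per library, which was used only for this purpose (largest difference 3.58e-08). Smad3 UMIs cannot check the genotype, since 5′ tags need not lie in the deleted part. Averages per cluster were deposited by the authors on a scale summing to about 1311 per column and were rescaled to sum to 1000000. Deposited fold changes and p-values of the authors' comparisons were not used.

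Cells were kept if they had 200 genes or more, more than 500 and fewer than 20000 UMIs and less than 10% of UMIs from mitochondrial genes, but LLC carcinoma-like cells had no upper limit. No upper limit was applied before clustering. Louvain clustering (igraph 0.11.9, resolution 1.0, 15 neighbours, 100 principal components of 2000 variable genes, scanpy 1.11.5 for Scrublet only) gave clusters that were named by markers, at least 3 of which had to be found in 10% of cells and at 2-fold. These names were rebuilt here and need not match those of the study. Scrublet marked 0 of 3902 Smad3-WT and 3 of 2433 Smad3-KO cells (0.123%), so it has not worked here and no doublet was removed. UMIs were summed per class and library. A gene entered a quotient with at least 20 UMIs. A fold against a count of 0 is a bound against a floor of 3 UMIs, which leaves out the counting error of the other count. Counts of genes past 2-fold over all genes use the UMIs as counted, zeros included. Simulated cells were drawn from the summed UMIs of the classes already named, so they cannot show whether real cells were named right. With 1 simulated cell per kept cell, 99.98% were given back their class, and with 800 cells of 4 classes 68.8% were. The 800 cells were also capped in depth and pooled over libraries, so the drop cannot be put down to their number alone. The naming of small sets of cells may be less sure.

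The members and the pathway and marker lists were chosen with earlier results of these data known. Named genes were the members, list genes with at least 200 UMIs in kept cells or counted among 5 or fewer, and for each member with at least 200 UMIs the 3 genes most like it. The alternatives were other filters, clusterings, scalings, totals and fold limits, cells free of the other class's markers, and, chosen after seeing the data, the data without shared barcodes and each cluster alone. RefSeq promoter windows came from GRCm38.p6.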

Additional observations from a re-analysis of the deposited data

Results flagged for a closer look

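The KO/WT quotient of Vegfa, the hypoxia-induced endothelial growth factor, lay on opposite sides of 1 in different classes. It was 1.82 (1.47 to 2.25) in neutrophil-like cells and 2.40 (1.67 to 3.53) in fibroblast-like cells, but 0.435 (0.289 to 0.631) in macrophage or monocyte-like cells. The share of fibroblast-like cells with a Vegfa UMI was nevertheless lower in Smad3-KO (37.7%) than in Smad3-WT (49.0%). The intervals cover counting error only and leave out the spread between cells, although the 112 Smad3-KO fibroblast-like UMIs came from 26 cells. With 1 library per genotype the difference between classes was not tested.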

How the results depend on the processing

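No paired analysis was possible because each genotype has 1 library and no test was made. In neutrophil-like cells the count of members past 2-fold was 3, and 4 with median-of-ratios scaling or in cells without macrophage markers. It was 5 at a fold of 1.5 (13.6% of all genes higher, 37.3% lower). In analyses chosen after seeing the data it was 1 in cluster 1 alone (9.42% and 24.9%). Among the same analyses it was 0 in cluster 3 alone (34.6% and 23.2%, on only 25 Smad3-WT cells). In macrophage or monocyte-like cells it was 4. It was 3 at resolution 2.0 or a minimum of 50 UMIs (each without Hbegf) and in cells without neutrophil markers, and 5 with the mean over cells or a fold of 1.5 (each with Pgf higher). It was 5 in cluster 2 alone, with Vegfb higher (13.4% of all genes higher, 10.8% lower). It was 4 with cells of at least 500 UMIs and at most 20% mitochondrial UMIs (12.9% and 14.6%). Vegfa (0.568) lost its call there and Pgf (4.41) gained one. The count was 0 in cluster 8 alone (14.3% and 21.3%), where the quotients turned to 1.15 for Thbs1, 1.40 for Osm and 1.06 for Hbegf. Hbegf also turned to 2.82 in macrophage or monocyte-like cells with 0 neutrophil marker UMIs, with too few UMIs for a call. The cause of these changes was not tested, and a count printed without a share over all genes cannot be read against one. Over the 13 settings that took the neutrophil-like class together, of which 1 kept only cells without macrophage markers and 1 left out the Ngp-led cluster, quotients ranged from 4.13 to 5.41 for Prok2, 0.277 to 0.341 for Osm, 0.619 to 0.748 for Thbs1, 0.173 to 0.269 for Hbegf and 1.73 to 2.17 for Vegfa, which passed 2-fold in 2 of them. Among the 13, the changes of the upper UMI limit kept the same 1821 and 1080 neutrophil-like cells and so could not move these quotients. Over the 12 settings that took the macrophage or monocyte-like class together the quotients were 0.0905 to 0.223 for Thbs1, 0.298 to 0.568 for Vegfa and 0.201 to 0.452 for Osm. Pgf ranged there from 1.41 to 4.41, on few UMIs. Pgf and Areg had few UMIs in every class of Smad3-KO, at most 18 and 11, and all members had few in its 24 carcinoma-like cells.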
